A study of Mus musculus with 20 samples.

Results

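The genes of the eukaryotic translation initiation factors were followed in newly made RNA of mouse embryonic stem cells in which transcription had been blocked. Members were all genes of the expression table whose symbol begins with Eif and a digit from 1 to 6, which gave 55 genes of 22556. A value over 1 read per kb was reached in 1 or more of the conditions by 50 of them, and by 8773 genes of the whole table. Eif2s3y, Eif2ak4, Eif4e1b, Eif4e3 and Eif5a2 did not reach it.

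All cells were E14-WT, a wild-type mouse embryonic stem cell line, kept on gelatin with serum and LIF, a cytokine that holds such cells undifferentiated. The 5 conditions were no drug (0 h), 100 µM DRB for 2 h, 100 µM DRB for 5 h, 10 µM triptolide for 1 h and 10 µM triptolide for 2 h. DRB inhibits the kinases that release paused RNA polymerase II into elongation. Triptolide blocks transcription initiation through the XPB subunit of TFIIH. Before harvest, cells received 150 µM 4-thiouridine for 10 min, or none as an unlabelled control, so that RNA made in this pulse could be tagged, captured and sequenced (iTC-seq). The 20 samples comprised 10 labelled and 10 unlabelled ones, with 2 replicates for each condition and label. The table holds 1 column for each condition, given by the authors as reads per kb of gene with the unlabelled background taken off and negative values set to 0. A gene listed at 0 thus had no signal above that background, which need not mean that no reads were seen. Sums of net reads below include these zeroed values. No spread between replicates can be had from the table, so no difference below carries a test or a p-value. The series as a whole concerns the recruitment of PRC2 to silenced CpG islands, and all conditions come from 1 line.

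Translation initiation begins when eIF2, bound to GTP and initiator methionyl-tRNA, joins eIF1, eIF1A, eIF3 and eIF5 on the small ribosomal subunit. The cap-binding complex eIF4F, made of eIF4E, the helicase eIF4A and the scaffold eIF4G, brings this assembly to the mRNA. After the start codon is found, eIF5 promotes GTP hydrolysis by eIF2 and eIF5B joins the large subunit. eIF2B recharges eIF2, and 4 kinases that phosphorylate eIF2 alpha slow this step under stress. The eIF4E-binding repressors keep eIF4E from eIF4G when mTOR signalling is low. The genes are expressed in nearly every cell, and embryonic stem cells divide quickly and need the machinery.

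Values are background-subtracted reads per kb of gene, and a set of 5 values stands in the order no drug, DRB 2 h, DRB 5 h, triptolide 1 h and triptolide 2 h. The values were taken as whole multiples of what 1 read was worth in each gene, and net reads were recovered from them. A gene length was accepted only if it made every value of the gene whole, so the net reads are whole by construction. Over the 16983 genes whose length could be recovered, the net reads were 1224246, 328264, 93574, 72477 and 61040. A percent of the level without drug carries an exact 95% interval (Clopper-Pearson, on net reads), which covers counting error only and not the subtraction or the spread between cultures. A gene was called lower or higher when its log2(value + 1) differed by at least 1 log2 unit, a rule of size that understates the difference of low genes. For a gene listed at 0, the difference is fixed by its level in the other condition alone. Without drug, 9 of 10 embryonic stem cell markers lay above 1 read per kb, and Dppa5a was listed at 0. None of the 5 primitive endoderm markers passed that level, while 1 of 5 fibroblast markers (Fn1, 7.04 reads per kb) and 3 of 5 neural markers did. How far such cells contribute to the values below was not tested.

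The 55 genes held 10946 net reads without drug, which was 0.894% of the reads of all genes with a recovered length. In such bulk samples fewer cells, less RNA per cell and shallower sequencing cannot be told apart, since library sizes were not given. This holds for every share kept below. The 55 genes held 3038 net reads after DRB 2 h, 360 after DRB 5 h, 132 after triptolide 1 h and 197 after triptolide 2 h. Their share of all reads was 0.925% after DRB 2 h, 0.385% after DRB 5 h, 0.182% after triptolide 1 h and 0.323% after triptolide 2 h. Thus the genes as a group lost reads in step with the whole table at DRB 2 h and were further below it in the other 3 treated conditions. Values above 0 were listed for all 55 members without drug, for 54 after DRB 2 h and for 27 after DRB 5 h. They were listed for 14 members after triptolide 1 h and for 22 after triptolide 2 h. Of all 22556 genes, 15238, 13654, 9422, 7981 and 9189 were above 0 in these conditions. Of the 50 genes above 1 read per kb, 8 had net reads in all 5 conditions: Eif5b, Eif3m, Eif3j1, Eif2b3, Eif4g3, Eif2ak3, Eif2s3x and Eif2ak2. Among all genes, 1589 above 0 in all 5 conditions served to scale the columns to equal medians below, beside the 8773 above 1 read per kb. Signal in every condition is therefore not called a trait of the members. The 17 that were listed at 0 at DRB 5 h and at both triptolide times included Eif4a1, Eif4a2, Eif4b, Eif4h, Eif4e2 and Eif4g2 of the cap-binding machinery and 8 subunit genes of eIF3. How many of all genes share this pattern was not counted. Singly, 47.3%, 59.3% and 49.5% of genes with signal without drug were at 0 at DRB 5 h, triptolide 1 h and triptolide 2 h.

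**Figure D1:**
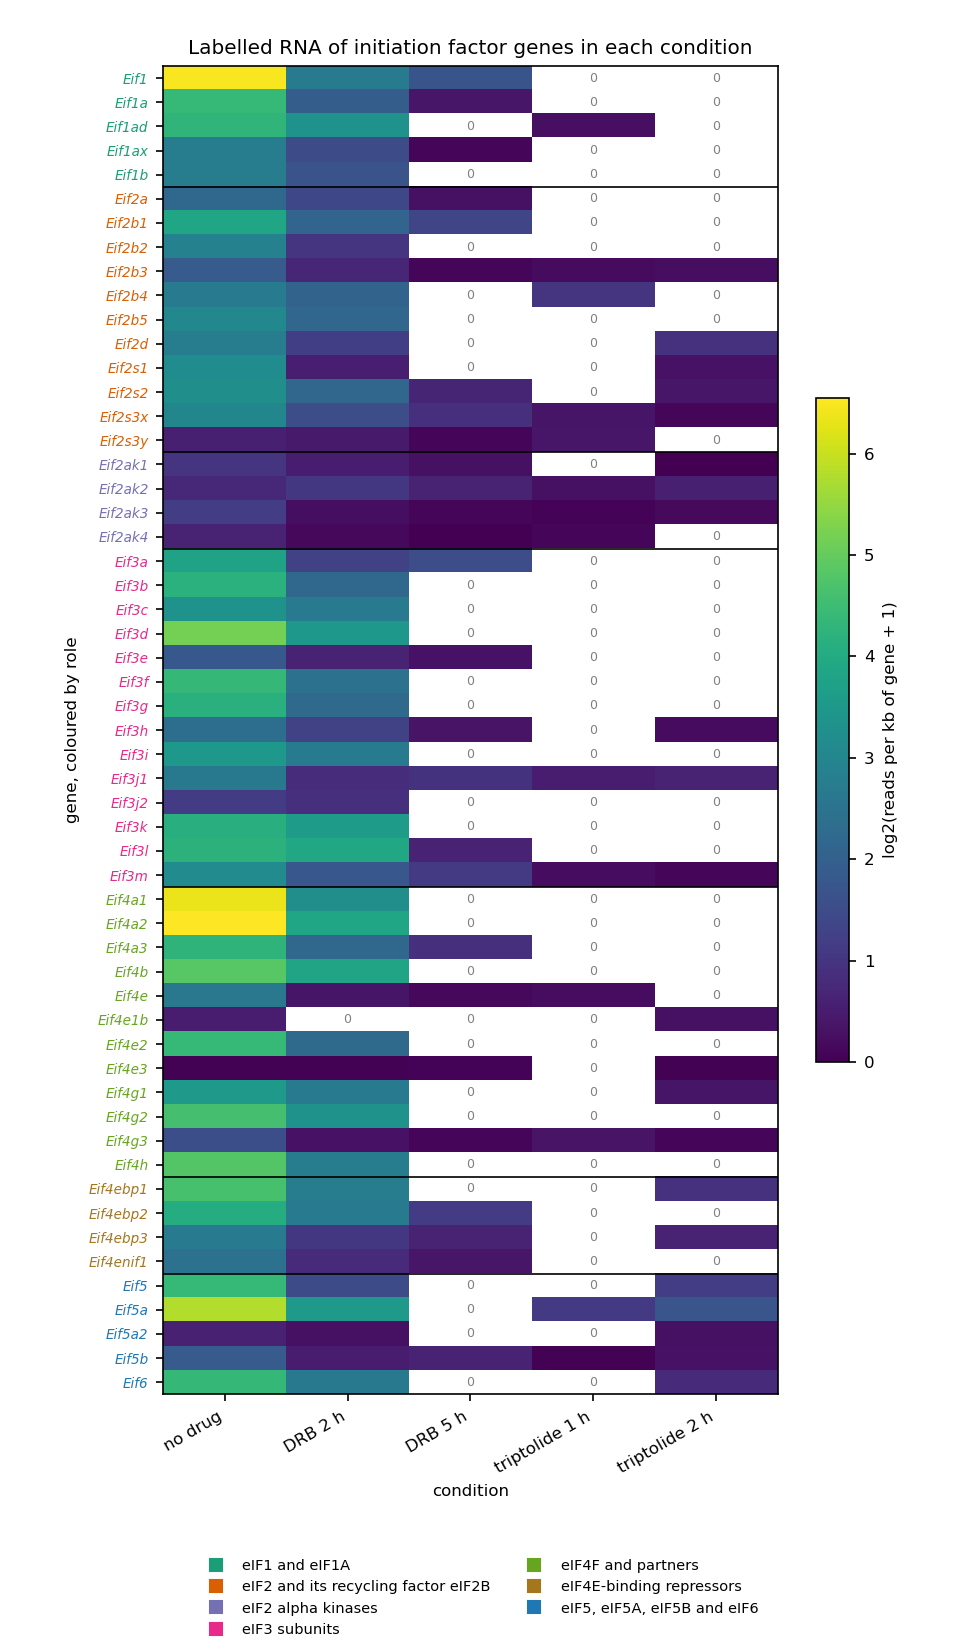
Level of each initiation factor gene (rows, grouped by role) in each of the 5 conditions (columns), as background-subtracted reads per kb with 1 value a condition. Without drug Eif4a2 stood highest at 92.5 reads per kb, and most rows reach 0 under triptolide.

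Without drug the highest members were Eif4a2 at 92.5, Eif1 at 88.2, Eif4a1 at 80.7, Eif5a at 54.3 and Eif3d at 35.5 reads per kb. These ranked 72, 77, 91, 151 and 251 among all genes of the table. The median of the 50 members was 9.71 reads per kb, against 3.55 over the 8456 genes tested that had signal without drug and an annotated span. The groups of factors overlapped widely. By group median the 4 eIF2 alpha kinase genes lay lowest, at 0.842 and from 0.543 to 1.27 reads per kb, although Eif4e3, Eif4e1b, Eif2s3y and Eif5a2 of other groups were lower still. The order among genes with close levels, such as Eif1a and Eif4e2, both at 19.9, cannot be resolved without replicates.

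After 2 h of DRB every initiation factor group gave fewer reads, and the genes differed widely in how much signal they kept. Of the 50 genes, 37 were lower by the size rule, 0 were higher and 13 lay within it, against a background of 66.1% lower and 2.20% higher among all genes tested. None was listed at 0, against 9.47% of all genes with signal without drug. The median difference was -1.43 on the log2 scale, against -1.27 over all genes. When the columns were scaled to equal medians or equal quantiles, the median of all genes was -0.25 or -0.02, that of the initiation factor genes -0.21 or -0.07, and 19 or 23 of the 50 genes changed sign. The 50 genes kept 27.7% of their reads (26.6% to 28.9%), against 26.03% over all genes tested. Differences between members are therefore given as percents of each gene's own level without drug, whose order does not depend on the scaling to equal medians.

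Named below are members whose higher value in a comparison reached the median of all genes tested, called well measured here. The lowest shares among them belonged to Eif4e, which encodes the cap-binding protein, and Eif2s1, which encodes eIF2 alpha, the subunit that the stress kinases phosphorylate. Eif4e kept 5.59% (2.51% to 10.9%) of its level, with 161 net reads before and 9 after. Eif2s1 kept 5.85% (2.98% to 10.4%), with 205 reads before and 12 after. Eif1 kept 6.15% (3.13% to 11%), Eif5 9.36% (5.23% to 15.6%) and Eif4a1 10.4% (7.49% to 14.1%). These 5 were below no drug under both rescalings too. At the other end stood 3 subunits of eIF3. Eif3l kept 78.6% (66.7% to 92.6%), Eif3k 68.2% (53.4% to 86.9%) and Eif3c 59.6% (46.5% to 75.9%), and all 3 turned above no drug under both rescalings. Eif2b4, a regulatory subunit gene of eIF2B, kept 59.4% (31.8% to 108%) and Eif4g1, the main scaffold gene, 53.7% (43.3% to 66.4%), and both also turned above no drug under both rescalings. These 10 genes were picked as the extremes of this ratio, so the gap between them is a description.

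**Figure D2:**
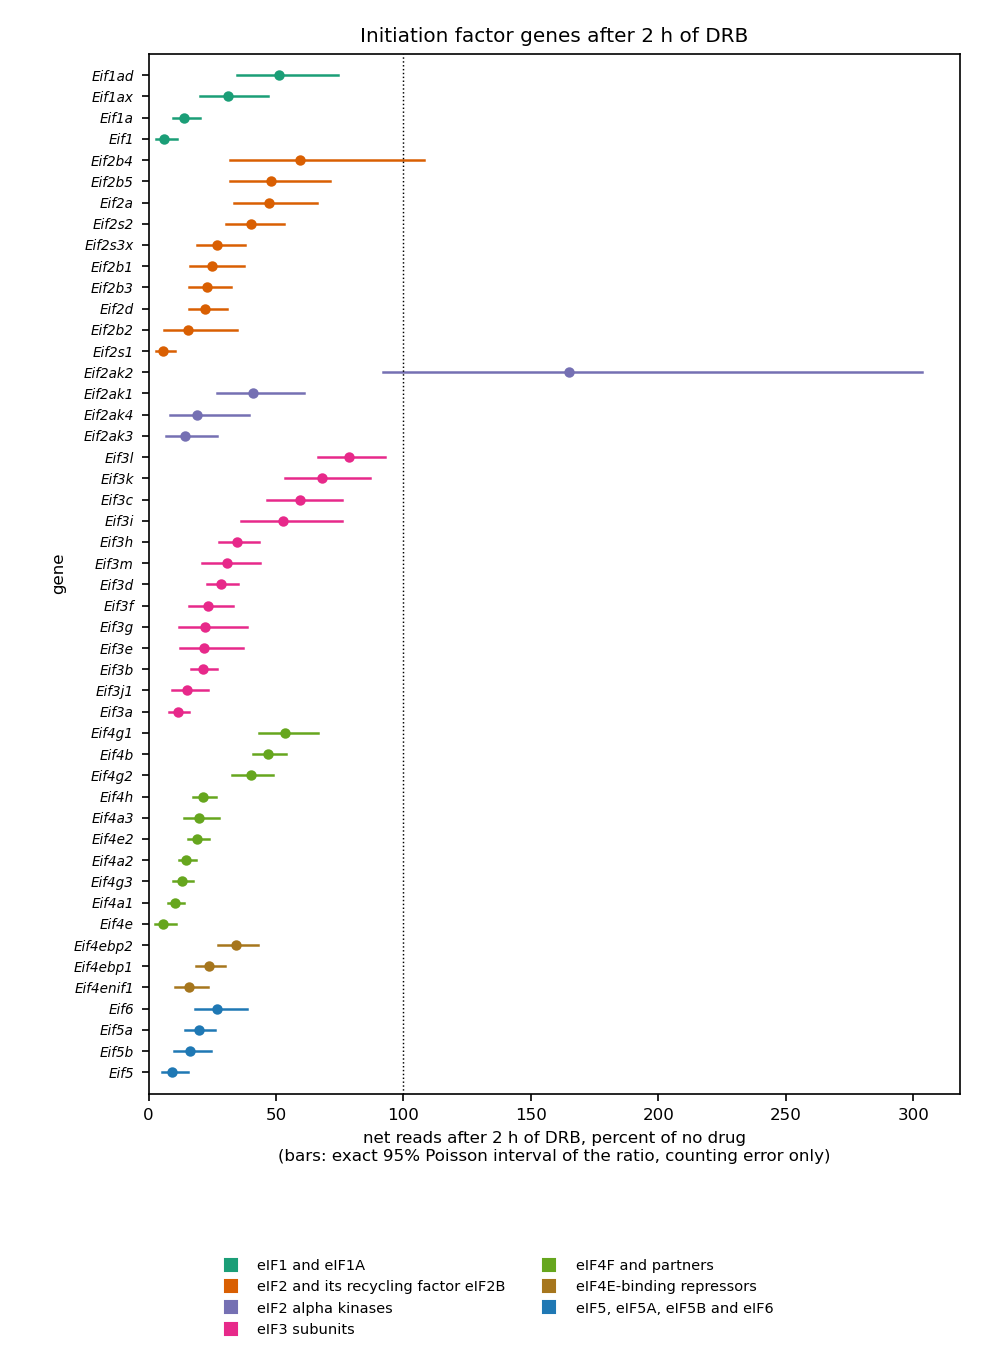
Percent of the no-drug level kept after DRB 2 h (linear axis) for each member with at least 20 net reads without drug, coloured by role, with exact 95% counting intervals as lines. Eif4e, Eif2s1 and Eif1 lie at the low end near 6%, Eif3l at 78.6%, and Eif2ak2 is the 1 gene above 100%, with an interval that reaches below it; equal-median or equal-quantile scaling puts 19 or 23 of the 50 genes on the other side of no drug.

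Promoters of the genes at these ends are shown because both drugs act on RNA polymerase II near the start site. The sequences are RefSeq's, on build GRCm38.p6, from 250 bases before each start to 50 after it, written 5′ to 3′ in the direction of the gene. Capitals mark matches on either strand to TATAAA (the box bound by TBP), CACGTG (E-box), GGGCGG (GC box), CCGGAAG (an ETS-type site) and CCAAT. The first 2 genes kept least after DRB 2 h and the last 2 kept most.
Eif4e, chr3:138525941-138526240, plus strand: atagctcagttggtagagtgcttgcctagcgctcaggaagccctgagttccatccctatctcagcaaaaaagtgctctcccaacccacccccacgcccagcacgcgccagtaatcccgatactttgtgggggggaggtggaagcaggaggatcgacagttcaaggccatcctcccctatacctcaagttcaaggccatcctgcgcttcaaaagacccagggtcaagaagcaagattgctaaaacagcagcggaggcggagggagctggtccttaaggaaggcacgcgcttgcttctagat
Eif2s1, chr12:78861822-78862121, plus strand: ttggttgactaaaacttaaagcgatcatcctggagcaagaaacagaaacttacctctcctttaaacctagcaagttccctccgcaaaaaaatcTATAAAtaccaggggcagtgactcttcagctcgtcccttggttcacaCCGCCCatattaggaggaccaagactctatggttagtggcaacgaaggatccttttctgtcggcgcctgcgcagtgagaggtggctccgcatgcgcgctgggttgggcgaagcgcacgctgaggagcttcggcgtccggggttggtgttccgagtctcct
Eif3l, chr15:79074973-79075272, plus strand: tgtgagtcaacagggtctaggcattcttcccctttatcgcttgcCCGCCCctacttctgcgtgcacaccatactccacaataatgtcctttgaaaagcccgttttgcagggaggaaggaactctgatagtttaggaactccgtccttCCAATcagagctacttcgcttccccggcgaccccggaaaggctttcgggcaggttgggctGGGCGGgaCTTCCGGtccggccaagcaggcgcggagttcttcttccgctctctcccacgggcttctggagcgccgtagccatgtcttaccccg
Eif3k, chr7:28981839-28982138, minus strand: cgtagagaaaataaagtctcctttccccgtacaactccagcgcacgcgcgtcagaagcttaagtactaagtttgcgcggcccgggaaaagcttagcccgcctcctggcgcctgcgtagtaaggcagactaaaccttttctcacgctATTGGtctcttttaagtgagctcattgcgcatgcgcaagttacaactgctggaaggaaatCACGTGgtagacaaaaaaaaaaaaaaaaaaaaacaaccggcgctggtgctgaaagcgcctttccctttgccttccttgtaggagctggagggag

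The promoter of Eif4e held none of these motifs, that of Eif2s1 held the TATAAA box and a GC box, that of Eif3l GC boxes, an ETS-type match and a CCAAT match, and that of Eif3k a CCAAT match and an E-box. A match is only a run of letters and was not tied to binding of any factor. Among the 40 genes above 1 read per kb that had a promoter entry, 72.5% held GGGCGG, against 66.2% of 6367 promoters of genes above that level. CCGGAAG was held by 32.5% against 21.2%, CACGTG by 17.5% against 11%, TATAAA by 7.5% against 6.44% and AAGATGGC, the YY1 type motif, by 7.5% against 5.84%. CCAAT was held by 30% against 40.3%. Median GC content was 61% in both sets. Many mRNAs of the translation machinery start with a C followed by a run of pyrimidines, the 5′ terminal oligopyrimidine tract through which mTOR controls their translation. At the annotated start itself, a C followed by 4 pyrimidines stood in 2 of the 40 genes (5.0%), against 2.42% of all promoters. Their starts are shown from 10 bases before to 15 bases into the transcript, with the C and the 4 pyrimidines in capitals.
Eif2s3x: gagcattttcCTTTTctctccgagc
Eif3f: tctaggctctCTCTCtttctcggca

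After 5 h of DRB, 26 of the 50 genes were listed at 0, which was 52.0%, against a background of 47.3% among all genes with signal without drug. By size 48 genes were lower and 0 higher, against 85.5% lower and 1.03% higher over all genes, and the median difference was -2.97 against -1.86. Members also started higher, at a median of 9.71 reads per kb without drug against 3.55 over the 8456 genes above. The part of this starting level in the gaps was not tested. Under equal medians or equal quantiles the members' median was -1.54 or -0.89 while that of all genes was -0.66 or 0.07, and 6 or 19 members changed sign. The 50 genes kept 3.27% of their reads (2.94% to 3.64%), against 6.31% over all genes tested. Over all 55 members the share was 3.29%, and 2.87% without Eif3a. The highest members without drug that were listed at 0 were Eif4a2, Eif4a1, Eif5a, Eif3d and Eif4b. Among well-measured genes the largest shares were those of Eif3j1 at 17.7% (11.2% to 27.0%), Eif3a at 15.2% (11.3% to 20.1%) and Eif3m at 14.6%, and these 3 turned above no drug under both rescalings. Eif2s3x at 11.8% and Eif2b1 at 11.7% followed and turned above no drug under equal quantiles.

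Set against DRB 2 h, 30 of the 50 genes were lower by size at DRB 5 h and 0 were higher, against 29.7% and 1.13% of all genes. The 26 at 0 compare with 46.0% of all genes with signal at DRB 2 h. The 50 genes held 11.8% of their DRB 2 h reads, against 24.2% over all genes tested. Under equal medians or equal quantiles 27 or 23 of the 50 genes were lower by size and 1 or 3 higher, and 5 or 15 changed sign. Of the 8773 genes tested, 2250 or 1286 were then lower and 323 or 988 higher. At or above their DRB 2 h value were 3 of the 50 members, against 748 of 7889 genes with signal at DRB 2 h. Of these 3, Eif3a, which encodes the largest subunit of eIF3, held 43 net reads at DRB 2 h and 57 at DRB 5 h. That was 133% (87.7% to 202%), an interval that holds equality. Eif5b was at 128% (73.5% to 225%) and Eif3j1 at 118% (64.4% to 219%), and these intervals too hold equality. On the log2 scale the difference of Eif3a went from 0.25 to 1.11 under equal medians and 1.76 under equal quantiles. That of Eif3j1 went from 0.11 to 0.78 and 1.35, and that of Eif5b from 0.12 to 0.65 and 1.19.

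After 1 h of triptolide little new initiation factor RNA was seen. Of the 50 genes, 38 were listed at 0, which was 76.0% against 59.3% over all genes with signal without drug. By size 49 were lower and 0 higher, against 87.9% and 0.787% of all genes, and the median difference was -3.42 against -1.98. For the 38 genes at 0 that difference is set by the level without drug, where members had a median of 9.71 reads per kb against 3.55. How far this starting level makes up the gaps was not tested. Under equal medians or equal quantiles the members' median was -1.97 or -1.19, that of all genes -0.79 or 0.02, and 3 or 11 members changed sign. The 50 genes kept 1.1% of their reads (0.914% to 1.32%), against 3.68% over all genes tested. Eif4g3, a scaffold gene and the longest member, supplied 58 of the 132 reads of all 55 members, whose share was 1.21% with it and 0.703% without. The largest shares among well-measured genes were those of Eif2b4 at 18.8% (6.41% to 45.5%), which turned above no drug under both rescalings, and of Eif3j1 at 8.16%, which did so under equal quantiles. Eif2s3x at 4.12% and Eif4e at 3.11% also did so under equal quantiles, and Eif3m at 2.19% did under neither.

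After 2 h of triptolide, 31 of the 50 genes were listed at 0, which was 62.0% against 49.5%. By size 48 were lower and 0 higher, against 87.0% and 0.866% of all genes, and the median difference was -3.17 against -1.92. Here too the part of the members' higher starting level in these gaps was not tested. Under equal medians or equal quantiles the members' median was -1.54 or -0.83, that of all genes -0.67 or 0.06, and 4 or 13 members changed sign. The 50 genes kept 1.76% of their reads (1.51% to 2.03%), against 3.48% over all genes tested. Eif2d, which encodes a factor that can deliver tRNA to the ribosome without GTP, kept 15.3% (10.2% to 22.5%), and Eif3j1 kept 10.2% (5.57% to 17.4%); both turned above no drug under both rescalings. Between the triptolide times 1 gene was lower by size at 2 h, Eif2b4, and 1 higher, Eif5, against 3.03% and 3.35% of all genes. The reads of the 50 genes at 2 h were 159% (126% to 202%) of those at 1 h, against 94.5% over all genes tested. Over all 55 members they were 149% (119% to 187%), and 126% (99.5% to 159%) without Eif2d, an interval that holds equality. The departures rested on few reads, since Eif5 had 0 and then 11, and Eif2b4 had 6 and then 0. Both drugs can be set side by side at 2 h, though at different doses: 34 of the 50 genes were higher after DRB than after triptolide and 0 lower, against 33.2% and 1.04% of all genes. Equal medians or equal quantiles changed the sign for 9 or 13 of them, among which were Eif2d, Eif5 and Eif5b. All comparisons with no drug share that 1 column, so an error in it would enter each of them.

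**Figure D3:**
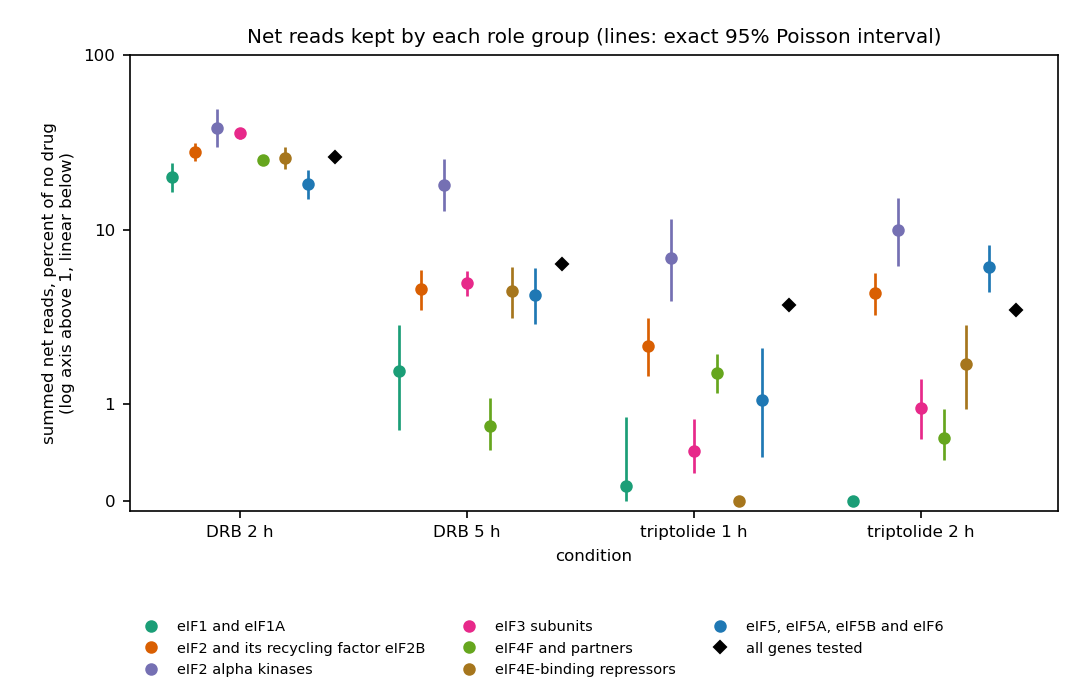
Percent of the no-drug net reads kept by each group of initiation factors in the 4 treated conditions (log axis above 1, linear below), with exact 95% counting intervals as lines where reads were above 0; black diamonds stand for all 8773 genes tested. The kinase genes stand highest in all 4 conditions, but at DRB 2 h their interval overlaps that of eIF3. Eif2ak2 held 33 of their 89 net reads there, against 20 of 232 without drug, so that place rests on Eif2ak2. At triptolide 2 h their 9.91% is 3.77% without Eif2ak2, below the eIF5 and eIF2 groups. eIF1 and eIF1A have 0 net reads after triptolide 2 h.

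The genes of eIF1 and eIF1A, which hold the small subunit open to scan for the start codon, kept 19.9% of their net reads after DRB 2 h. They kept 1.54% after DRB 5 h, 0.154% (a single net read) after triptolide 1 h and none above background after triptolide 2 h. Of the 5 genes, 4 were lower by size after DRB 2 h and all 5 in each other treated condition. Of all genes tested, 66.1% were lower after DRB 2 h and 85.5% to 87.9% in the other treated conditions. Eif1 stood at 88.2, 5.43, 2.26, 0 and 0 reads per kb, an early and deep loss that held under both rescalings. Eif1a stood at 19.9, 2.80, 0.319, 0 and 0 reads per kb. Eif1ax, the X-linked gene of eIF1A, stood at 5.75, 1.80, 0.0563, 0 and 0 reads per kb, and its value after DRB 2 h turned above no drug under both rescalings. Eif1b, a close relative of Eif1, had 16 net reads without drug, 6 after DRB 2 h and 0 elsewhere. Eif1ad, which encodes an eIF1A-domain protein of ribosome maturation, kept most of the group after DRB 2 h. It stood at 18.3, 9.37, 0, 0.213 and 0 reads per kb, and its DRB 2 h value turned above no drug under both rescalings.

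Of the 11 genes of eIF2, eIF2B and related factors, 10 passed the level of 1 read per kb. They kept 27.9% of their reads after DRB 2 h, 4.54% after DRB 5 h, 2.16% after triptolide 1 h and 4.31% after triptolide 2 h, the last being 2.36% without Eif2d. By size 7 were lower after DRB 2 h, against 66.1% of all genes tested. All 10 were lower in each of the other treated conditions, against 85.5% to 87.9%. The 3 subunits of eIF2 did not follow one another. Eif2s1 (alpha) stood at 8.14, 0.476, 0, 0 and 0.238 reads per kb. Eif2s2 (beta) stood at 8.64, 3.48, 0.604, 0 and 0.325 reads per kb. At like levels without drug, the interval of Eif2s1 after DRB 2 h therefore lay below the 40.3% that Eif2s2 kept, and Eif2s2 turned above no drug under both rescalings. Eif2s2 lies wholly within the agouti gene a on the opposite strand, which held 511, 129, 32, 0 and 25 net reads, and the part of that overlap was not tested. Eif2s3x (gamma) stood at 7.04, 1.90, 0.828, 0.290 and 0.0828 reads per kb, with reads in all conditions. Its Y-linked partner Eif2s3y stood at 0.492, 0.382, 0.0546, 0.328 and 0 reads per kb, from at most 9 net reads.

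The 5 subunits of eIF2B, the exchange factor of eIF2, spread from 2.69 (Eif2b3) to 13.5 (Eif2b1) reads per kb without drug. Eif2b5, the catalytic subunit gene, stood at 7.27, 3.50, 0, 0 and 0 reads per kb, and its DRB 2 h value turned above no drug under both rescalings. Eif2b1 stood at 13.5, 3.36, 1.57, 0 and 0 reads per kb. Eif2b2 stood at 6.30, 0.979, 0, 0 and 0 reads per kb. Eif2b2 thus kept 15.6% and Eif2b5 48.1% after DRB 2 h, although they lay close in level without drug. Eif2b3 kept a little signal throughout, at 2.69, 0.619, 0.0884, 0.147 and 0.177 reads per kb. Eif2b4 stood at 5.45, 3.24, 0, 1.02 and 0 reads per kb, the last 3 from 0, 6 and 0 net reads. Eif2d stood at 5.86, 1.31, 0, 0 and 0.899 reads per kb, with 31 net reads after triptolide 2 h. Eif2a, whose product is a separate tRNA-binding factor and not a subunit of eIF2, stood at 3.54, 1.67, 0.221, 0 and 0 reads per kb. Eif2d overlaps Rassf5 on the opposite strand over 11.2 kb, and Rassf5 held 40, 13, 9, 89 and 28 net reads; whether the authors' counting used strand is not given in the sources used here, and its part in the Eif2d value was not tested.

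The kinase genes, whose products phosphorylate eIF2 alpha in response to different stresses, were low. Together they kept 38.4% of their reads after DRB 2 h, 18.1% after DRB 5 h, 6.90% after triptolide 1 h and 9.91% after triptolide 2 h. Eif2ak2 carried much of the triptolide values, and without it they were 4.25% at 1 h and 3.77% at 2 h, the latter below the 6.07% of the eIF5 group and the 4.31% of the eIF2 group. At DRB 2 h the interval of the kinases (29.7% to 49.2%) overlapped that of eIF3 (33.1% to 38.2%). Eif2ak2 held 33 of the kinases' 89 net reads there, against 20 of 232 without drug, so their top place at DRB 2 h rested on Eif2ak2 too. Of the 3 above 1 read per kb, 0 were lower by size after DRB 2 h, 1 after DRB 5 h, 2 after triptolide 1 h and 1 after triptolide 2 h. Of all genes tested, 66.1%, 85.5%, 87.9% and 87.0% were lower. With levels near 1 the size rule can hardly be met. Eif2ak2, which encodes the double-stranded RNA sensor PKR, stood at 0.666, 1.1, 0.566, 0.233 and 0.50 reads per kb. It was the 1 gene of the 50 with a higher value after DRB 2 h than without drug, at 165% (91.9% to 303%), from 20 and 33 net reads, so the interval includes equality. Only that DRB 2 h value took it past 1 read per kb, so its place among the 50 depends on the same value. Among all genes tested with signal without drug, 509 of 8560 were at or above their level without drug after DRB 2 h. After triptolide 1 h Eif2ak2 was at 35.0% (12.5% to 86.2%), below equality, but above it under both rescalings. Eif2ak1, the haem-regulated kinase gene, stood at 1.02, 0.416, 0.231, 0 and 0.0116 reads per kb, and its values after DRB 2 h and DRB 5 h turned above no drug under both rescalings. Eif2ak3 (PERK, of the endoplasmic reticulum) stood at 1.27, 0.181, 0.0659, 0.0494 and 0.115 reads per kb, below no drug in all 4 treated conditions except under equal quantiles. Eif2ak4 (GCN2, the sensor of uncharged tRNA) stood at 0.543, 0.104, 0.0115, 0.0693 and 0 reads per kb.

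The 14 subunit genes of eIF3, the scaffold that binds the small subunit and keeps it from the large one, kept 35.6% of their reads after DRB 2 h, and 29.96% without Eif3l. They kept 4.92% after DRB 5 h, 0.513% after triptolide 1 h and 0.958% after triptolide 2 h, of which 0.108% and 0.468% were left without Eif3j1. By size 9 of the 14 were lower after DRB 2 h, against 66.1% of all genes tested. All 14 were lower in each other treated condition, against 85.5% to 87.9%. Eif3l stood at 17.6, 13.8, 0.574, 0 and 0 reads per kb, so the gene that kept most at DRB 2 h held little at DRB 5 h. Eif3k stood at 16.3, 11.1, 0, 0 and 0 reads per kb. Eif3c, a core subunit gene, stood at 9.17, 5.46, 0, 0 and 0 reads per kb. Eif3a stood at 12.7, 1.45, 1.93, 0 and 0 reads per kb, and the interval between its DRB values holds equality. The shares of Eif3a and Eif3l after DRB 2 h, 11.4% (8.14% to 15.7%) and 78.6% (66.7% to 92.6%), were apart by far more than counting error although both belong to 1 complex. Eif3d, the best-covered of the group and a cap-binding subunit gene, stood at 35.5, 10.1, 0, 0 and 0 reads per kb. Eif3b, Eif3f and Eif3g stood at 17.3, 19.7 and 16.9 reads per kb without drug and at 3.66, 4.57 and 3.77 after DRB 2 h, and all 3 were listed at 0 in the other treated conditions.

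Eif3e, Eif3h and Eif3m lay lower, at 2.51, 4.12 and 7.86 reads per kb without drug. Eif3e stood at 0.551 after DRB 2 h and 0.245 after DRB 5 h, and at 0 under triptolide. Eif3h, with 325 net reads without drug, stood at 1.43 after DRB 2 h, 0.279 after DRB 5 h, 0 after triptolide 1 h and 0.152 after triptolide 2 h. Eif3i stood at 10.2, 5.41, 0, 0 and 0 reads per kb. Eif3m kept reads throughout, at 7.86, 2.41, 1.15, 0.172 and 0.0574 reads per kb, and lies within the annotated span of Ccdc73, which held 160, 70, 52, 17 and 15 net reads; the part of that overlap was not tested. Eif3j1 kept reads in all conditions, at 5.24, 0.784, 0.927, 0.428 and 0.535 reads per kb. It overlaps Spg11 on the opposite strand over 3.08 kb, and Spg11 held 80, 25, 0, 0 and 0 net reads. Its near copy Eif3j2 stood at 1.24, 0.827, 0, 0 and 0 reads per kb from 3 and 2 net reads, and 94.1% of the 30-base words of the Eif3j2 gene were also found in Eif3j1. Reads of the pair could therefore have been split or lost in mapping, and their values are uncertain.

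Of the 12 genes of eIF4F and its partners, 10 passed the level of 1 read per kb. They kept 25% of their reads after DRB 2 h, 0.769% after DRB 5 h, 1.51% after triptolide 1 h and 0.649% after triptolide 2 h. Most of the last 3 values came from Eif4g3, and without it they were 0.401%, 0.134% and 0.241%. By size 9 of the 10 were lower after DRB 2 h, against 66.1% of all genes tested. All 10 were lower in each other treated condition, against 85.5% to 87.9%. Eif4a1 and Eif4a2, which encode the helicase that unwinds the 5′ leader, stood at 80.7 and 92.5 reads per kb without drug, 8.38 and 13.7 after DRB 2 h, and 0 in the other 3 conditions. At DRB 2 h they kept 10.4% (7.49% to 14.1%) and 14.9% (11.8% to 18.5%), below no drug under both rescalings too. Eif4a3, whose product belongs to the exon junction complex, stood at 18.0, 3.58, 0.853, 0 and 0 reads per kb. Eif4e stood at 5.13, 0.287, 0.0955, 0.159 and 0 reads per kb, and Eif4e2, a homologue that competes for the cap, at 19.9, 3.80, 0, 0 and 0 reads per kb. Eif4e1b and Eif4e3, further relatives of the cap-binding gene, had at most 2 net reads in any condition.

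The scaffold genes differed among themselves. Eif4g1 stood at 10.4, 5.58, 0, 0 and 0.285 reads per kb, with its value after DRB 2 h above no drug under both rescalings. Eif4g2, whose product lacks the eIF4E-binding part, stood at 23.4, 9.37, 0, 0 and 0 reads per kb and turned likewise at DRB 2 h. Eif4g3 stood at 1.95, 0.255, 0.0789, 0.269 and 0.0835 reads per kb. It kept 13.1% (9.68% to 17.3%) after DRB 2 h and 13.8% (10.3% to 18.2%) after triptolide 1 h, and then held 31.0% (17.2% to 53.4%) of that at triptolide 2 h. Under equal medians its triptolide 1 h value, and under equal quantiles its values at DRB 5 h and at both triptolide times, turned above no drug. Eif4b and Eif4h, which encode stimulators of the helicase, stood at 27.7 and 26.6 reads per kb without drug and at 13 and 5.70 after DRB 2 h, and both were listed at 0 elsewhere. Eif4b kept 47.0% (40.9% to 53.9%) at DRB 2 h and turned above no drug under both rescalings.

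The 4 genes of eIF4E-binding repressors kept 25.8% of their net reads after DRB 2 h and 4.44% after DRB 5 h. They kept none above background after triptolide 1 h and 1.71% after triptolide 2 h. The DRB 5 h share was 2.48% without Eif4ebp2 and the triptolide 2 h share 0.195% without Eif4ebp1. All 4 were lower by size in every treated condition, against 66.1% to 87.9% of all genes tested. Eif4ebp1, the main target of mTOR in this group, stood at 23.8, 5.68, 0, 0 and 0.913 reads per kb. Eif4ebp2 stood at 15.6, 5.35, 1.24, 0 and 0 reads per kb, and its DRB 2 h value turned above no drug under both rescalings. Eif4enif1, whose product carries eIF4E into the nucleus, stood at 4.50, 0.711, 0.308, 0 and 0 reads per kb. It lies wholly within Drg1 on the opposite strand, which held 513, 120, 51, 0 and 23 net reads, and the part of that overlap was not tested. Eif4ebp3 stood at 5.39, 1.08, 0.539, 0 and 0.539 reads per kb, from 10, 2, 1, 0 and 1 net reads, too few to place.

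Of the 5 genes of eIF5, eIF5A, eIF5B and eIF6, 4 passed the level of 1 read per kb. These 4 were lower by size in every treated condition, against 66.1% to 87.9% of all genes tested. They and Eif5a2 kept 18.2% of their reads after DRB 2 h, 4.22% after DRB 5 h, 1.06% after triptolide 1 h and 6.07% after triptolide 2 h. All 32 reads of the group at DRB 5 h were those of Eif5b, and without Eif5a the triptolide 1 h share was 0.423%. Eif5, whose product triggers GTP hydrolysis on eIF2, stood at 19.8, 1.85, 0, 0 and 1.27 reads per kb, and its triptolide 2 h value turned above no drug under equal quantiles. Eif5a, which encodes the hypusine-bearing factor of elongation, stood at 54.3, 10.7, 0, 1.14 and 2.29 reads per kb and also turned at triptolide 2 h under equal quantiles. Eif5b, the gene of the subunit-joining GTPase, stood at 2.69, 0.434, 0.556, 0.0347 and 0.243 reads per kb. It held 20.6% (13.6% to 30.4%) at DRB 5 h, a value that turned above no drug under both rescalings, and 14 net reads at triptolide 2 h against 2 at 1 h. It overlaps Rev1 over 2.79 kb, and Rev1 held 318, 78, 58, 3 and 15 net reads; the part of that overlap was not tested. Eif6, which keeps the large subunit from joining too early, stood at 19.5, 5.22, 0, 0 and 0.705 reads per kb. Eif5a2, the second gene of eIF5A, had 9, 4, 0, 0 and 4 net reads.

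Members spanned a median of 19 kb, against 16.7 kb over the 8456 genes described above. Longer members had lower levels without drug (Spearman's rho -0.535, Pearson's r -0.495 over 50 genes), and the rho over those 8456 genes was -0.269. These relations are across genes of shared libraries, which are not independent replicates, and are given as a description. After DRB 5 h the members listed at 0 were the shorter ones. The 26 at 0 had a median span of 9.62 kb and the 24 with reads one of 28.8 kb. Of the 16 members under 10 kb, 13 were listed at 0, of the 22 from 10 to 30 kb 12 were, and of the 12 of 30 kb or more 1 was, which was Eif2d. Over the 8456 genes the shares listed at 0 in these span classes were 58.1%, 47.6% and 34.6%. At a given level a longer gene gathers more net reads, and the part of this in the listings at 0 was not tested. The rho between span and percent kept was -0.107 after DRB 2 h, 0.517 after DRB 5 h, 0.273 after triptolide 1 h and 0.367 after triptolide 2 h. The same rho over the 8456 genes was -0.064, 0.102, 0.057 and 0.096. Among the 47 members with at least 20 net reads without drug the values were -0.068, 0.574, 0.240 and 0.431.

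**Figure D4:**
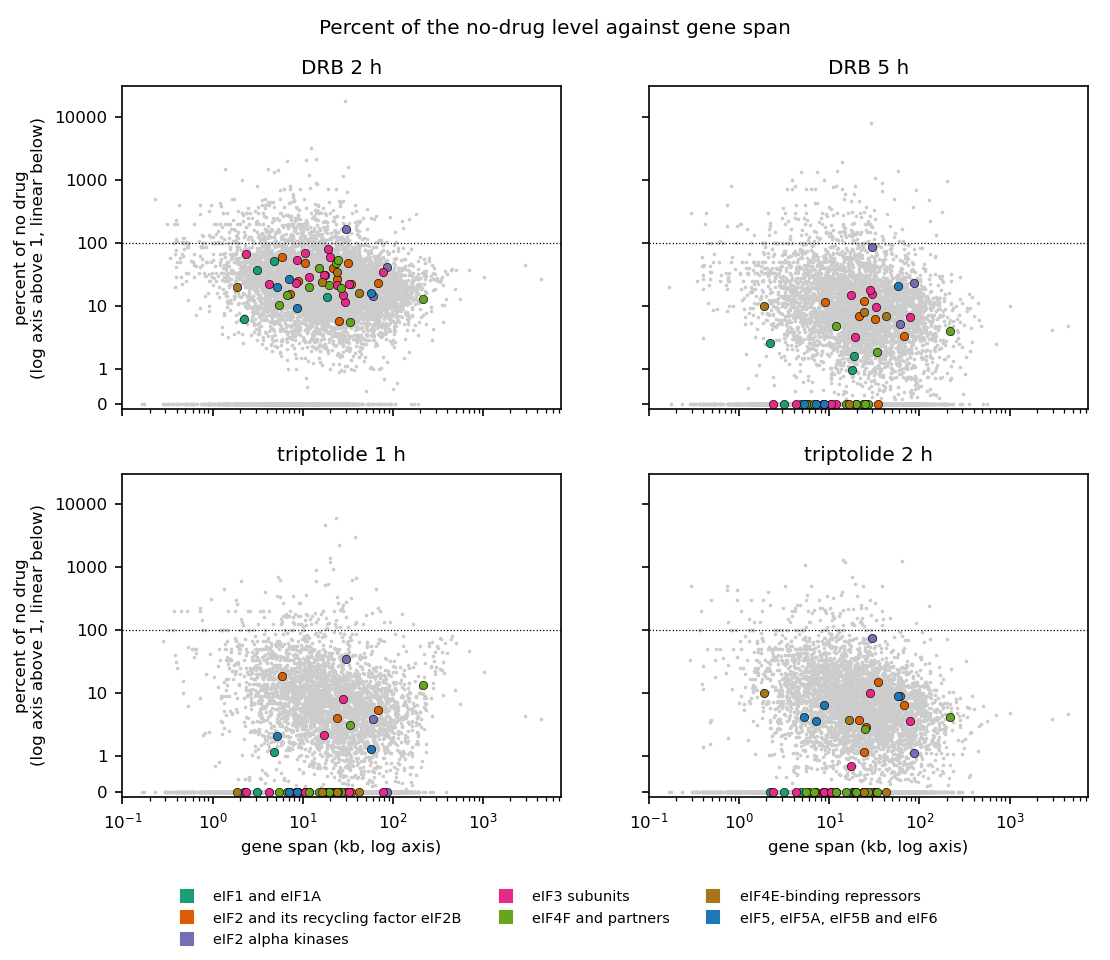
Percent of the no-drug level kept against gene span in kb (log axis) in the 4 treated conditions, with members coloured by role and all other genes tested in grey; the vertical axis is log above 1 and linear below. After DRB 5 h the members on the 0 line have a median span of 9.62 kb and those with reads 28.8 kb.

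Other genes within or across the members can add reads to them. Of the 55 members, 30 overlap another annotated gene and 13 a protein-coding one, 11 of these on the opposite strand and 2 on the same strand. Within 7 members above 1 read per kb lie 14 genes of snoRNAs or scaRNAs, small RNAs that guide the modification of other RNAs and are cut from introns. Eif4a2 holds 5, Eif4a1 3 and Eif3a 2, and Eif2ak3, Eif4g1, Eif4g2 and Eif5 hold 1 each. The 7 hosts had a median of 19.8 reads per kb without drug, against 8.14 for the other 43 members, and kept a median of 14.3% after DRB 2 h against 25%. The part of the small RNAs in these values was not tested.

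A wider list of 39 genes that act beside the initiation factors was followed in the same way. Of the 34 above 1 read per kb, 26 were lower by size after DRB 2 h, 31 after DRB 5 h, 33 after triptolide 1 h and 34 after triptolide 2 h, and 0 were higher in any. Of all genes tested, 66.1%, 85.5%, 87.9% and 87.0% were lower in these comparisons. The median differences of the list were -1.49, -2.89, -2.81 and -2.80 on the log2 scale, against -1.27, -1.86, -1.98 and -1.92 over all genes. All 7 elongation factor genes above 1 read per kb were lower in every condition but DRB 2 h, where 6 were, against the same 66.1% to 87.9% of all genes. Eef1b2 stood at 118, 21, 0, 0 and 0 reads per kb. Eef2, the translocase gene, stood at 108, 53.3, 0, 0 and 0 reads per kb, and its DRB 2 h value turned above no drug under both rescalings. Pabpc1, which encodes the poly(A)-binding partner of eIF4G, stood at 28.9, 2.93, 0, 0 and 0 reads per kb. Atf4, the transcription factor gene translated when eIF2 alpha is phosphorylated, stood at 166, 16.1, 1.27, 0 and 0 reads per kb. Its partner Ddit3 kept more, at 5.62, 3.45, 2.54, 0.181 and 0 reads per kb, and its DRB 2 h and DRB 5 h values turned above no drug under both rescalings. Mtif2, the mitochondrial counterpart of eIF5B, stood at 3.97, 6.46, 5.46, 0.371 and 0.318 reads per kb, so its 2 DRB values were above no drug. Mtif3, the other mitochondrial initiation gene of the list, went the other way, at 8.51, 0.164, 0.164, 0.327 and 0.573 reads per kb.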

How the data were processed

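Per the labels' protocols, new RNA was tagged with 4-thiouridine, captured and sequenced (iTC-seq) in 20 samples in 10 groups of 2. Per the submitters' processing notes, reads were mapped with Bowtie and the build was GRCm38 (mm10). The deposited table gives, per the file headers, 1 signal value per gene and condition, as reads per kb, with Ensembl release 72 identifiers. In these values the authors had taken off the unlabelled background and, per the sheet's name, set negative values to 0. How replicates were joined, library sizes and the use of strand were not given in the sources used here, so the depth of single replicates is unknown.

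A gene's length, found from its annotated span or the step between its values (accepted within 20% of the span), turned the values into net reads for 16983 of 17512 genes with signal and all 55 members, with the span as length for 44 of them. Differences were taken on log2(value + 1) over the 8773 genes that exceeded 1 read per kb somewhere, and called at 1 log2 unit. The fit planned over replicates (limma) could not be made with 1 column for each condition. Annotation was GENCODE M21, promoters RefSeq's on GRCm38.p6. Of the members above 1 read per kb, 40 had a promoter entry. Python 3.11.15, NumPy 2.4.6, pandas 2.3.3, SciPy 1.17.1 and Matplotlib 3.10.9 were used. The length recovery and intervals were checked on simulated Poisson counts. The simulation had no background subtraction, zeroing or joining of replicates, so it cannot show that the intervals hold for these net reads.

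The members, the wider pathway list and the motifs were chosen with earlier results of these data known. Named were genes with a set role in initiation and, in each comparison, the 5 members with the lowest and the 5 with the highest ratio among those at or above the median level of all genes tested. Alternatives were other pseudocounts, other filters and other scalings of the columns.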

Additional observations from a re-analysis of the deposited data

How the results depend on the processing

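No paired analysis was possible because the deposited table holds 1 column for each condition and no replicate, and leaving out single replicates was not run for the same reason. With a pseudocount of 10 in place of 1, the members lower by size numbered 12 at DRB 2 h, 24 at DRB 5 h, 25 at triptolide 1 h, 24 at triptolide 2 h, 6 between the DRB times and 0 between the triptolide times, where a pseudocount of 0.1 gave 5. Of the 8773 genes tested, 644, 1314, 1381, 1362, 249 and 5 were lower in these comparisons with 10, and 1380 between the triptolide times with 0.1. With columns at equal medians, 6 of the 50 members were lower at DRB 2 h and 31 at DRB 5 h, against 903 and 3060 of all genes. With equal quantiles the members numbered 5 at DRB 2 h, 23 at DRB 5 h, 29 at triptolide 1 h and 22 at triptolide 2 h. All genes lower there numbered 560, 1421, 1596 and 1519. Between the triptolide times 3 members and 1132 of all genes were lower. For DRB 2 h against triptolide 2 h, 4 members and 1360 of all genes were. Over all 55 members, the share of reads kept without the member with most reads was 26.5% at DRB 2 h, 2.87% at DRB 5 h, 0.703% at triptolide 1 h, 1.55% at triptolide 2 h and 10.1% between the DRB times.

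Rescaling put these log2 differences on the other side of 0. At DRB 5 h, Eif3a stood at 0.10 (equal medians) and 0.86 (equal quantiles), Eif3j1 at 0.22 and 1.00, Eif3m at 0.046 and 0.79, and Eif2b1 at 0.50 and Eif2s3x at 0.61 under equal quantiles. At triptolide 1 h, Eif2b4 stood at 0.71 and 1.60, and Eif2s3x at 0.27, Eif3j1 at 0.87 and Eif4e at 0.27 under equal quantiles. At triptolide 2 h, Eif2d stood at 0.50 and 1.31, Eif3j1 at 0.071 and 0.91, Eif4ebp3 at 0.053 and 0.89, and Eif5 at 0.35 and Eif5a at 0.011 under equal quantiles. For DRB 2 h against triptolide 2 h, Eif5a stood at -0.80 under equal quantiles. The cause was not tested beyond the construction, which removes the common loss of signal. With no filter on low values all 70 named values kept their direction and side. The difference of a single gene cannot change with a filter on genes, so this setting is no check of it. Depth limits most values after DRB 5 h and triptolide, which rest on at most 58 net reads a gene.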
